A study of Mus with 8 samples.

Results

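The genes described here encode subunits of the respiratory chain and ATP synthase in mouse liver. They were chosen by symbol: every named row of the expression table whose symbol starts with Nduf followed by a, b, c, s or v and a digit, is one of Sdha to Sdhd, starts with Uqcr or Atp5, or starts with Cox, a digit from 4 to 8 and a letter. This gave 77 of 23185 named genes. Placed in complexes by symbol alone, they were 35 of complex I, 4 of complex II, 8 of complex III, 17 of complex IV and 13 of complex V. The rule uses names and no measured value, though it was proposed with earlier results of these data known. All are encoded in the nucleus, and 3 rows are pseudogenes (Ndufs5-ps, Uqcrh-ps1 and Atp5c1-ps), whose probes may pick up transcripts of the parent genes. The livers were collected 48 h after partial hepatectomy, in which part of the liver is cut away and the remnant regrows. The 4 samples labelled Ctrl were compared with the 4 labelled LKB1 KO, 1 array each, to ask how transcripts differ when LKB1, the kinase encoded by Stk11, is missing. The labels state neither strain, sex, age nor the means by which LKB1 was removed, nor do they say whether the samples are separate animals, so the p-values measure only the spread between these samples.

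Complexes I and II feed electrons from NADH and succinate into the chain, complex III passes them to cytochrome c, and complex IV hands them to oxygen. Complexes I, III and IV pump protons, and complex V, the ATP synthase, uses the gradient to make ATP. The coactivator PGC-1alpha, the product of Ppargc1a, is known for raising transcription of these genes together, through factors such as NRF1, GABP and the oestrogen-related receptors. In liver the chain supplies ATP for gluconeogenesis and urea synthesis and for the growth that follows resection.

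Values are log2 expression, and each difference is LKB1 KO minus Ctrl in log2 units from limma, with its standard error (SE), n = 4 arrays a group and p-values adjusted by the Benjamini-Hochberg method over all 23185 genes. Array medians lay between 3.75 and 3.96, and correlations between arrays between 0.960 and 0.988. Stk11 was lower in all LKB1 KO arrays (3.97 to 4.84) than in any Ctrl array (6.46 to 6.76), so no array went against its label. All 8 hepatocyte markers were measured, and their mean level was 10.50 to 10.66 in Ctrl and 10.43 to 10.54 in LKB1 KO. Ctrl 4 stood apart in muscle genes. The mean of 8 muscle markers was 6.11 there, against 3.03 to 3.29 in Ctrl 1 to 3 and 3.05 to 3.39 in LKB1 KO. Values with and without Ctrl 4 are therefore given for the genes this touches.

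Most subunit genes were slightly higher in the LKB1 KO livers, and no single gene passed the test. The mean was higher in LKB1 KO for 71 of the 77 genes and lower for 6, where 52.9% of all named genes were higher. The median difference was 0.22 log2 units, a 1.16-fold level, against 0.016 over all named genes. At an adjusted p under 0.05, limma called 0 of the 77 higher and 0 lower, where it called 1.98% of all genes, 0.487% higher and 1.49% lower. At an unadjusted p under 0.05 the counts were 26 higher and 1 lower, with 5.8% and 7.63% of all genes as background. The smallest adjusted p among the members was 0.0508, for Atp5o. The typical SE of 0.12 log2 units (median of the members) is about as large as many of the differences.

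All LKB1 KO arrays exceeded all Ctrl arrays for 36 of the 77 genes (46.8%), where 3.34% of all genes had this pattern. All were below for 1, Ndufa4l2, against 5.5% of all genes. The subunit genes are bright, with a median level of 9.10, so genes of like level serve as a rough second background, chosen after the values were seen. Among the 52 members with a mean level of at least 8, 51 had a higher mean in LKB1 KO and 31 had no overlap between the groups (59.6%). Of the 1264 other genes at that level, 50.6% had a higher mean and 10.4% had separate arrays with LKB1 KO above, with a median difference of 0.0034. The members share the same 8 arrays and move together, so these counts are not so many separate observations. In the plot of differences by gene, points right of 0 fill nearly the whole of each panel.

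**Figure D1:**
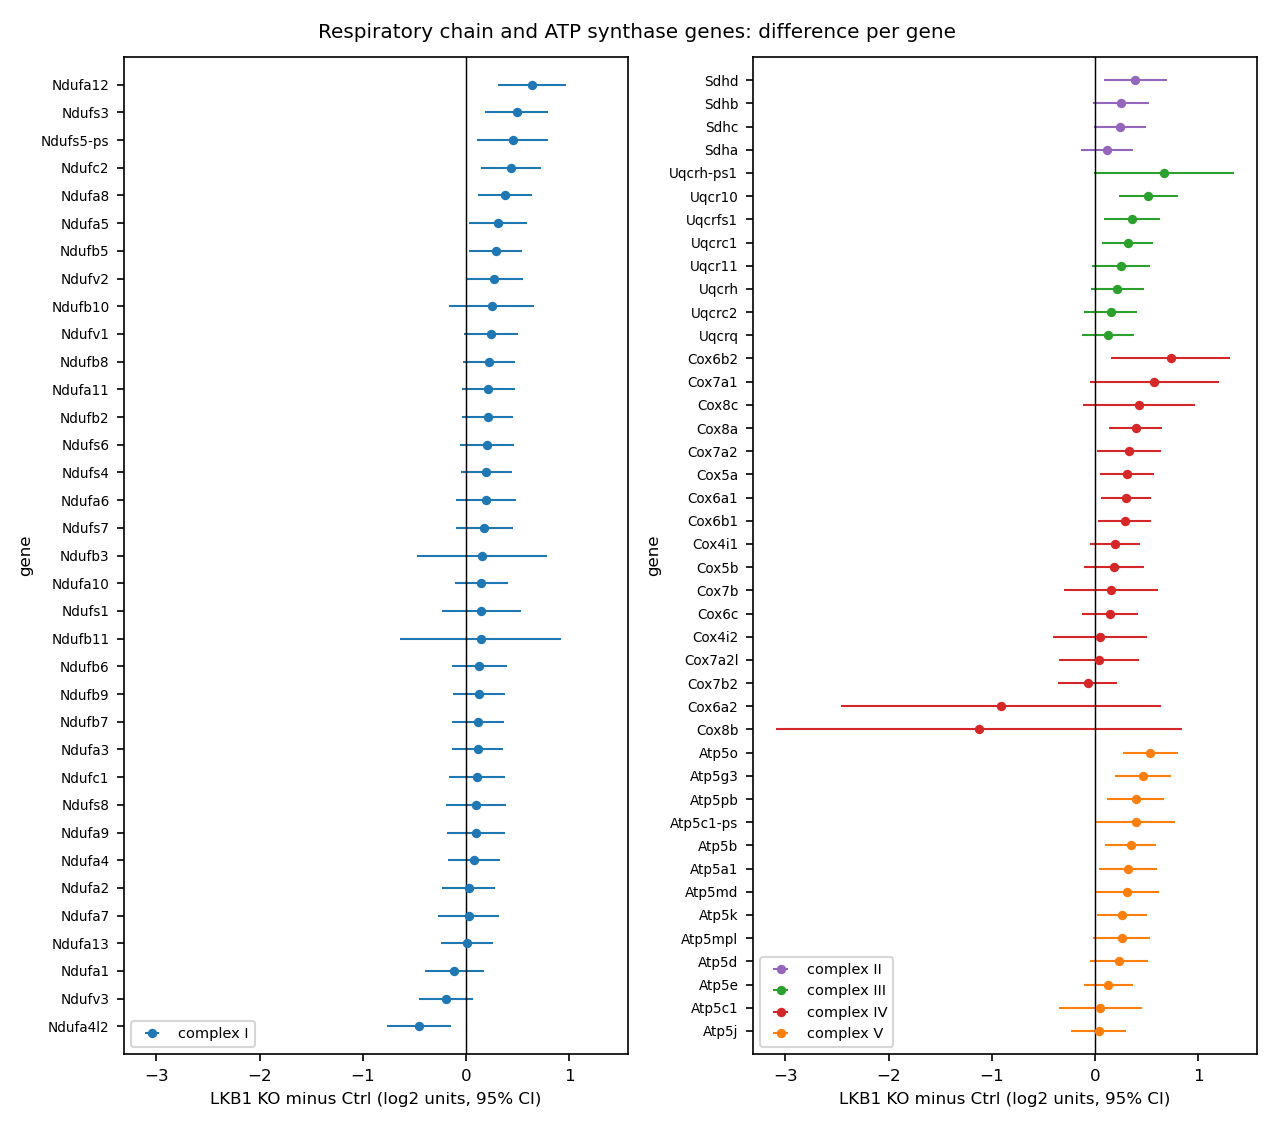
Difference of each subunit gene between LKB1 KO and Ctrl in log2 units (points), with its 95% confidence interval from limma (bars, n = 4 arrays a group), for complex I on the left and complexes II to V on the right. Most points lie right of 0, between 0 and 0.73, and the intervals of Cox8b and Cox6a2 are the widest.

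Markers of some other cell types also differed between the groups. All 8 sinusoidal endothelial markers measured had lower means in LKB1 KO and 3 of them fell; their mean level was 6.74 to 7.15 in Ctrl and 6.41 to 6.65 in LKB1 KO. The 8 macrophage markers were lower as well, 1 of them past the threshold, at 6.35 to 7.32 and 6.06 to 6.48. Of 3 erythroid markers measured, 2 had a lower mean in LKB1 KO and 1 a higher one. Alas2 fell, by 1.03 (SE 0.23, limma adjusted p = 0.0471), and the list's mean level was 6.09 to 6.32 in Ctrl and 5.25 to 6.19 in LKB1 KO. No lymphocyte, cholangiocyte or neutrophil marker passed the threshold, and means were higher in LKB1 KO for 5 of 8, 2 of 5 and 2 of 6. Means were lower in LKB1 KO for 6 of 8 stellate cell and fibroblast markers, with 0 past the threshold (limma) and 4 lower at an unadjusted p under 0.05, at 5.49 to 6.15 and 5.10 to 5.71. Of 6 listed markers of dividing cells 5 were measured, all 5 with a higher mean in LKB1 KO and a median difference of 1.23 log2 units. By limma 0 passed the threshold and 3 were higher at an unadjusted p under 0.05. Their mean level was 6.03, 7.01, 7.46 and 5.74 in Ctrl 1 to 4 and 7.52, 6.94, 8.02 and 7.73 in LKB1 KO 1 to 4. No defining endothelial, macrophage or dividing cell marker lay below the level that 95% of olfactory and vomeronasal receptor genes stay under (3.73, taken here as the upper edge of background). Means in both groups were below it for 5 of 8 lymphocyte, 2 of 5 cholangiocyte, 4 of 6 neutrophil and 1 of 3 erythroid markers. The absence of calls among such dim markers says little about those cells. The part of the cell types above in the subunit differences was not tested, and in whole tissue fewer cells of a type and less RNA per cell cannot be told apart.

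Per array, the median deviation of the 77 genes from their own means was -0.19, -0.06, -0.03 and -0.14 in Ctrl 1 to 4 and 0.07, 0.08, 0.11 and 0.17 in LKB1 KO 1 to 4. All Ctrl arrays were below all LKB1 KO arrays, and Ctrl 1 and Ctrl 4, the arrays with the lowest markers of dividing cells, were also the lowest here. The other arrays did not keep to this order. LKB1 KO 2 had lower markers of dividing cells (6.94) than Ctrl 2 (7.01) and Ctrl 3 (7.46), but a higher subunit median. The relation was not tested. In Ctrl 1, 6 of the 77 genes lay above their own mean, and in LKB1 KO 4, 64 did. The heat map of deviations shows this as a change of colour at the line between the groups.

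**Figure D2:**
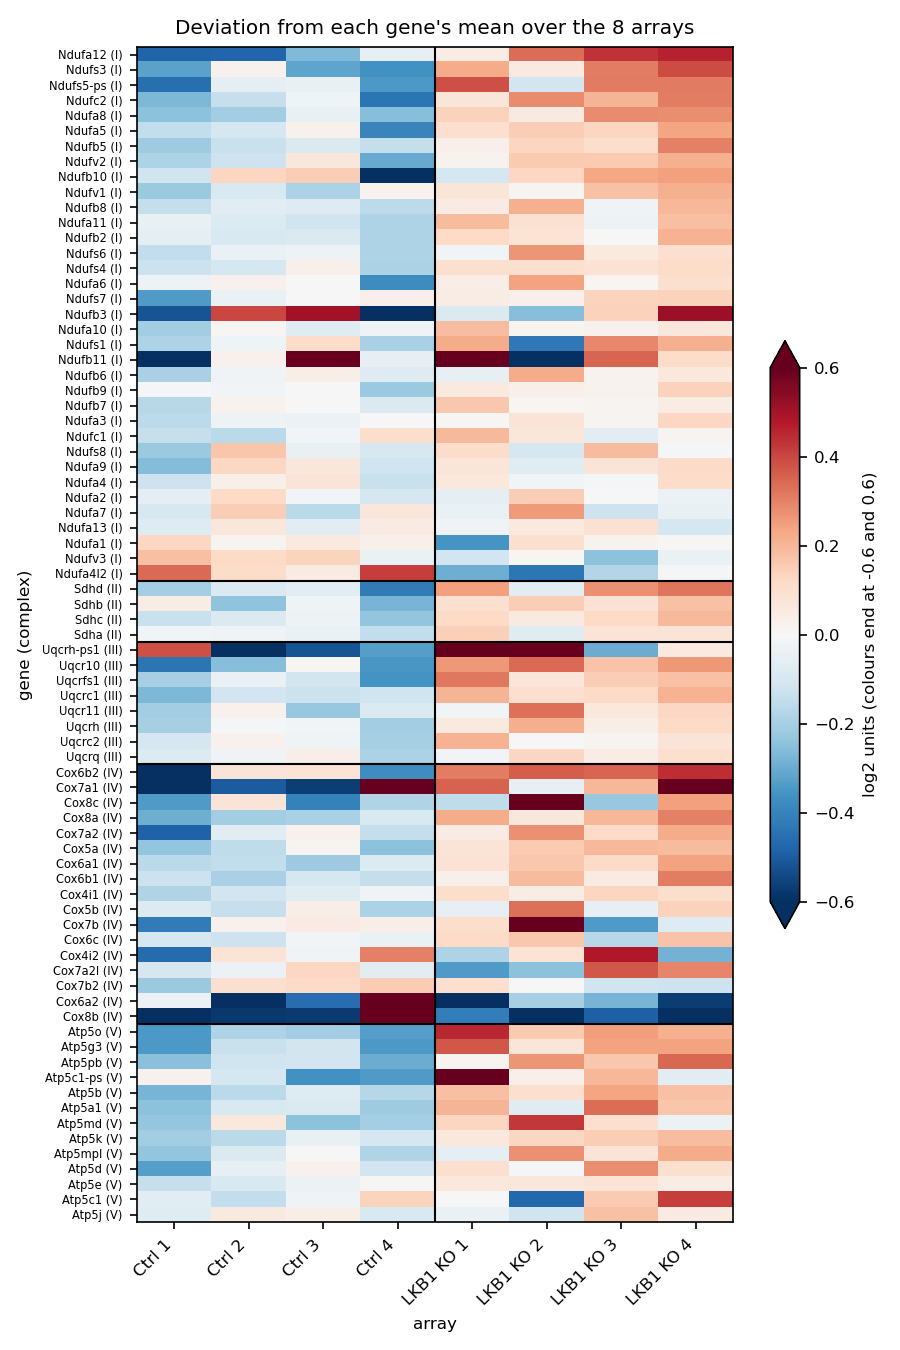
Deviation of each subunit gene (rows, complex in brackets, ordered within a complex by its difference) from its mean over the 8 arrays, in log2 units, by array (columns). Blue (below the mean) prevails in the Ctrl columns and red (above) in the LKB1 KO columns; Cox6a2 and Cox8b are dark red in Ctrl 4.

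Complex I, the NADH dehydrogenase, had the smallest median difference of the 5 complexes over all arrays, 0.15 log2 units. Without LKB1 KO 2, complex IV was lower (0.17, against 0.19 for complex I). Of the 35 complex I genes, 32 had a higher mean in LKB1 KO and 3 a lower one. All LKB1 KO arrays were above all Ctrl arrays for 15 (42.9%), against 3.34% of all genes. Leaving out Ctrl 3 moved the median to 0.21, the highest with single arrays left out, and leaving out Ctrl 1 to 0.11, the lowest. With Ndufa4 placed in complex IV and Ndufa4l2 and Cox7a2l in none, the median was 0.17 for complex I and 0.19 for complex IV. Of the 7 nuclear-encoded core subunits, which carry the flavin and iron-sulphur centres or line the path to ubiquinone, 6 were measured. All 6 had a higher mean: Ndufs3 by 0.49, Ndufv2 by 0.27, Ndufv1 by 0.24, Ndufs7 by 0.17, Ndufs1 by 0.15 and Ndufs8 by 0.10. Their adjusted p lay between 0.114 for Ndufs3 and 0.813 for Ndufs8. Ndufs3 read 4.61, 4.96, 4.62 and 4.57 in Ctrl 1 to 4 and 5.16, 4.99, 5.25 and 5.33 in LKB1 KO 1 to 4. Its groups were separate, but Ctrl 2 and LKB1 KO 2 were nearly level. Ndufs1, the largest subunit, read 7.02 in LKB1 KO 2 and 7.66 to 7.74 in the other LKB1 KO arrays, against 7.26 to 7.56 in Ctrl.

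The largest difference in complex I was in the accessory subunit gene Ndufa12. It stood at 8.27, 8.28, 8.49 and 8.70 in Ctrl 1 to 4 and at 8.80, 9.09, 9.19 and 9.22 in LKB1 KO 1 to 4. Every LKB1 KO array was above every Ctrl array, with a difference of 0.63 (SE 0.15, 95% confidence interval 0.31 to 0.96, adjusted p = 0.0608), or 1.55-fold. Without Ctrl 4 it was 0.72 (adjusted p = 0.0402). Ndufa12 was also called with quantile normalization (adjusted p = 0.0447), without the dimmest genes (0.0465), with a trended and robust prior (0.0291) and with array weights (0.0338).

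Ndufa4l2 and Ndufv3 had the lowest differences of the genes placed in complex I by symbol. Ndufa4l2, a hypoxia-inducible relative of Ndufa4 known for lowering complex I activity, read 4.11, 3.88, 3.82 and 4.18 in Ctrl and 3.48, 3.34, 3.59 and 3.75 in LKB1 KO. All LKB1 KO arrays were below all Ctrl arrays, at a difference of -0.46 (SE 0.14, adjusted p = 0.162), and 3 of the 8 arrays lay under the upper edge of background, so the size is uncertain. Ndufv3, a small accessory subunit next to the NADH site, had values of 8.08, 8.02, 8.03 and 7.86 in Ctrl and 7.78, 7.91, 7.65 and 7.86 in LKB1 KO. LKB1 KO 2 and LKB1 KO 4 reached the level of Ctrl 4, so the groups overlapped, and the difference was -0.20 (SE 0.12, adjusted p = 0.540). The remaining complex I gene with a lower mean, Ndufa1, was at 9.15 in LKB1 KO 1 and at 9.51 to 9.63 in the other 7 arrays, and is named after its values were seen.

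Complex II, succinate dehydrogenase, also belongs to the TCA cycle and has 4 subunits, all with a higher mean in LKB1 KO and a median difference of 0.25. Sdha, the flavoprotein that oxidises succinate, read 9.20, 9.19, 9.18 and 9.07 in Ctrl and 9.36, 9.14, 9.30 and 9.29 in LKB1 KO. LKB1 KO 2 lay within the Ctrl range, and the difference was 0.11 (SE 0.11, adjusted p = 0.731). Sdhb, the iron-sulphur subunit, read 9.82, 9.54, 9.75 and 9.50 against 9.88, 9.93, 9.87 and 9.95, with a difference of 0.25 (SE 0.12, adjusted p = 0.414). The membrane anchor Sdhc stood at 9.29, 9.34, 9.40 and 9.19 in Ctrl and at 9.55, 9.49, 9.55 and 9.63 in LKB1 KO, at 0.24 (SE 0.11, adjusted p = 0.387). Both genes had separate groups. The other anchor, Sdhd, had the largest difference, 0.39 (SE 0.14, adjusted p = 0.226), from 8.74, 8.86, 8.88 and 8.53 to 9.20, 8.88, 9.22 and 9.27. Its groups were separate only by a hair, since LKB1 KO 2 and Ctrl 3 both round to 8.88.

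Complex III, the cytochrome bc complex, had a median difference of 0.28 over 8 genes, all with a higher mean in LKB1 KO. Of these, 4 had separate arrays (50%, against 3.34% of all genes with LKB1 KO above). Apart from a pseudogene, the largest difference was in Uqcr10, a small subunit, which read 9.07, 9.25, 9.52 and 9.16 in Ctrl and 9.77, 9.85, 9.68 and 9.77 in LKB1 KO. The lowest LKB1 KO array exceeded the highest Ctrl array, and the difference was 0.52 (SE 0.13, adjusted p = 0.0807). Uqcr10 was called without Ctrl 3 (0.61, adjusted p = 0.0491), with quantile normalization (0.0473) and with the trended and robust prior (0.0291). Uqcrfs1, the Rieske iron-sulphur protein, differed by 0.35 (adjusted p = 0.214) and the core protein genes Uqcrc1 and Uqcrc2 by 0.32 (adjusted p = 0.221) and 0.15 (adjusted p = 0.647). Cyc1, the cytochrome that hands electrons to cytochrome c, has a symbol outside the naming rule. It differed by 0.33 (SE 0.14, adjusted p = 0.338).

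At the low end of complex III, Uqcrq read 10.60, 10.66, 10.72 and 10.49 in Ctrl and 10.67, 10.81, 10.73 and 10.78 in LKB1 KO, a difference of 0.13 (SE 0.11, adjusted p = 0.700) with overlapping groups. The pseudogene Uqcrh-ps1 had the highest mean difference, 0.67 (SE 0.31, adjusted p = 0.379). Of its 8 arrays, 7 lay under the upper edge of background, and the groups overlapped. Its parent Uqcrh stood at 0.22 (adjusted p = 0.479).

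Complex V, the ATP synthase, had the largest median difference of the 5 over all arrays, 0.31 log2 units (0.27 to 0.34 with single arrays left out). Without LKB1 KO 3 it was 0.27, below complex III (0.30) and complex IV (0.30). All 13 genes had a higher mean in LKB1 KO, and 7 had separate arrays (53.8%, against 3.34% of all genes with LKB1 KO above). The pseudogene Atp5c1-ps, at 0.39, lay under the upper edge of background in all 8 arrays. Without the dimmest genes the median of complex V was 0.28. In the catalytic F1 head, Atp5b differed by 0.34 (SE 0.11, adjusted p = 0.181), Atp5a1 by 0.32, Atp5d by 0.23, Atp5e by 0.13 and Atp5c1 by 0.05. Atp5a1 and Atp5b form the hexamer that makes ATP, and Atp5b read 10.59, 10.71, 10.79 and 10.70 in Ctrl and 11.05, 10.97, 11.11 and 11.04 in LKB1 KO. All LKB1 KO arrays were above all Ctrl arrays.

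Of 10 listed subunits of the membrane part and stalk, 5 were measured. Atp5o, the stalk protein that confers oligomycin sensitivity, read 9.07, 9.23, 9.21 and 9.08 in Ctrl 1 to 4 and 9.87, 9.57, 9.67 and 9.63 in LKB1 KO 1 to 4. The groups were clearly separate, at 0.53 (SE 0.12, 95% confidence interval 0.27 to 0.80, adjusted p = 0.0508), or 1.45-fold. The proton-carrying ring subunit gene Atp5g3 read 10.17, 10.38, 10.40 and 10.17 against 10.88, 10.59, 10.75 and 10.75, at 0.46 (SE 0.12, adjusted p = 0.0987). Atp5pb, of the peripheral stalk, stood at 0.39 (adjusted p = 0.168), Atp5k at 0.26 and Atp5j at 0.03. Atp5o was called with quantile normalization (adjusted p = 0.0244), without the dimmest genes (0.0410), with the trended and robust prior (0.0139) and with array weights (0.0305), and Atp5g3 with quantile normalization (0.0412) and the trended and robust prior (0.0241). Atp5c1 and Atp5j, the lowest of the complex, had overlapping groups and adjusted p of 0.938 and 0.936. Atpif1, the inhibitor that stops the enzyme from running backwards, is outside the naming rule. It read 8.93, 9.05, 9.10 and 8.98 in Ctrl and 9.55, 9.43, 9.45 and 9.41 in LKB1 KO, a difference of 0.45 (SE 0.11). Atpif1 did not pass the threshold in the main limma fit. It was called with quantile normalization (adjusted p = 0.0465), the trended and robust prior (0.0228) and no moderation of variances (0.0418).

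Complex IV, cytochrome c oxidase, held the greatest spread of differences. Several of its subunits come as isoforms used by different tissues. Its 17 genes had a median difference of 0.19 (0.17 to 0.30 with single arrays left out, the highest without LKB1 KO 3), with 14 means higher in the LKB1 KO arrays. The 6 general isoforms that have a tissue-restricted counterpart all had a higher mean: Cox8a by 0.39, Cox7a2 by 0.33, Cox6a1 by 0.30, Cox6b1 by 0.29, Cox4i1 by 0.19 and Cox7b by 0.16. Cox8a read 10.11, 10.20, 10.21 and 10.32 in Ctrl and 10.63, 10.47, 10.61 and 10.71 in LKB1 KO. Its groups were separate and its adjusted p was 0.136, the smallest of the complex. With the trended and robust prior Cox8a (adjusted p = 0.0308) and Cox6a1 (0.0339) were called.

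The muscle isoforms Cox8b and Cox6a2 had lower means in LKB1 KO, set by a single array. Cox8b, the heart and skeletal muscle form of subunit VIII, read 2.70, 2.79, 2.80 and 7.45 in Ctrl 1 to 4 and 2.96, 2.77, 2.88 and 2.63 in LKB1 KO 1 to 4. Cox6a2, the muscle form of subunit VIa, read 4.96, 4.16, 4.54 and 8.15 in Ctrl and 4.23, 4.80, 4.72 and 4.43 in LKB1 KO. Both genes were high in Ctrl 4 alone, and Cox8b lay under the upper edge of background in the other 7 arrays, so the size of its difference is uncertain. The differences were -1.12 (SE 0.89, adjusted p = 0.655) for Cox8b and -0.91 (SE 0.70, adjusted p = 0.644) for Cox6a2. Without Ctrl 4 they were 0.048 and -0.011, so that the fall in the means is absent from the other 7 arrays. The skeletal muscle markers Acta1 (9.77, against 3.43 to 3.75 in the other arrays), Tnnt3 (8.90, against 3.37 to 3.90) and Ckm (6.69, against 3.05 to 3.65) were high in the same array. The cardiac myosin gene Myh6 was not, at 3.07, and neither was the brown fat gene Ucp1, at 2.50. The mean of 6 brown and white fat markers, Ucp1 among them, was highest in Ctrl 4, at 4.22. It was 3.49 to 3.70 in Ctrl 1 to 3 and 3.62 to 3.90 in LKB1 KO, and 3 of the 6 lay under the upper edge of background in both groups. Slc25a4, the ADP/ATP carrier isoform of heart and muscle, was also highest in Ctrl 4, at 7.45 against 4.66 to 5.85.

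Cox7a1, the muscle form of subunit VIIa, had another pattern. It read 4.70, 4.94, 4.87 and 6.08 in Ctrl 1 to 4 and 5.79, 5.39, 5.63 and 6.08 in LKB1 KO 1 to 4. Ctrl 4 was as high as LKB1 KO 4, and the other Ctrl arrays were below all LKB1 KO arrays. The difference over all arrays was 0.58 (SE 0.28, adjusted p = 0.421). Without Ctrl 4 it was 0.89 (SE 0.18, adjusted p = 0.0351), and without both Ctrl 4 and LKB1 KO 2 it was 1.00 (adjusted p = 0.0197). Cox6b2, a form known from testis, read 4.61, 5.94, 5.94 and 5.49 in Ctrl and 6.17, 6.23, 6.21 and 6.31 in LKB1 KO. All LKB1 KO arrays were above all Ctrl arrays and close together, and the difference was 0.73 (SE 0.26, adjusted p = 0.225), or 0.44 without Ctrl 1. Cox7b2 and Cox8c lay under the upper edge of background in all 8 arrays and Cox4i2 in 3, with differences of -0.07, 0.42 and 0.05 and adjusted p from 0.518 to 0.949.

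**Figure D3:**
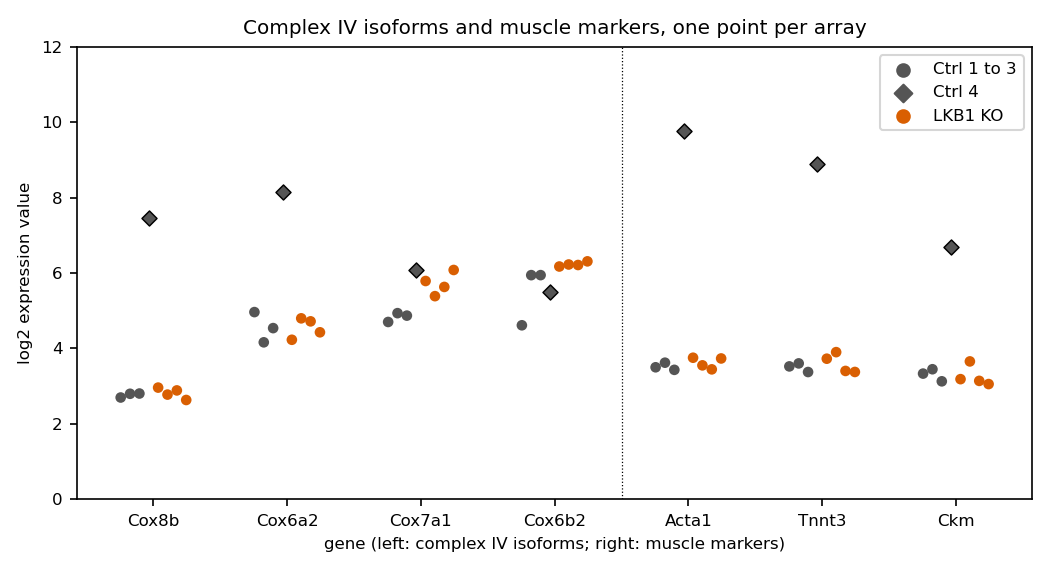
Log2 expression values of 4 tissue-restricted complex IV genes and 3 skeletal muscle markers, 1 point per array, with Ctrl 4 drawn as a diamond. Ctrl 4 is far above the other arrays for Cox8b, Cox6a2, Acta1, Tnnt3 and Ckm; for Cox7a1 it is level with the highest LKB1 KO array, and for Cox6b2 the LKB1 KO points lie above all Ctrl points.

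Ppargc1a itself was higher in all LKB1 KO arrays, at 7.13, 6.47, 6.92 and 7.22 in Ctrl 1 to 4 and 8.43, 8.10, 8.36 and 8.20 in LKB1 KO 1 to 4. It rose by 1.34 (SE 0.17, 95% confidence interval 0.95 to 1.72, limma adjusted p = 0.00401), or 2.53-fold, beside a median of 1.16-fold for the subunit genes. The arrays form 2 separate groups of 4, so no correlation over the 8 is given and none can be tested within a group. Within neither group did the subunit medians follow the order of Ppargc1a or its reverse. In the Ctrl group, from the lowest to the highest Ppargc1a, the medians were -0.06 in Ctrl 2, -0.03 in Ctrl 3, -0.19 in Ctrl 1 and -0.14 in Ctrl 4. In the LKB1 KO group, in the same order, they were 0.08 in LKB1 KO 2, 0.17 in LKB1 KO 4, 0.11 in LKB1 KO 3 and 0.07 in LKB1 KO 1. By complex, the array medians of I, III, IV and V were below 0 in all Ctrl arrays and above 0 in all LKB1 KO arrays. That of complex II was -0.0048 in LKB1 KO 2.

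**Figure D4:**
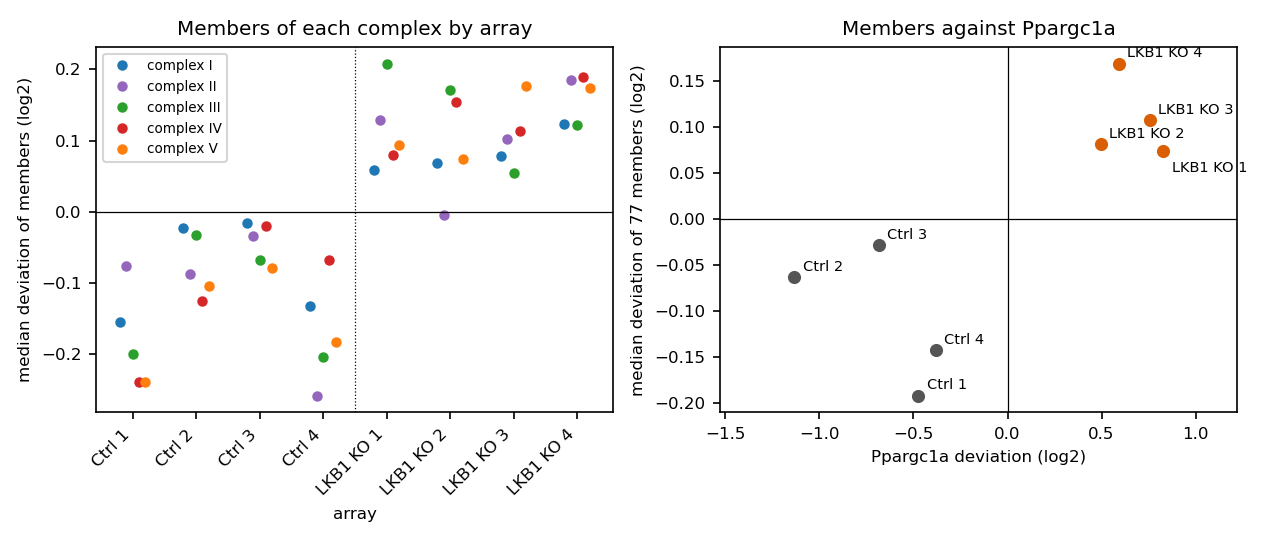
Left, median deviation of the genes of each complex from their means, in log2 units, by array. Right, the median deviation of all 77 genes against the deviation of Ppargc1a, 1 point per array (grey Ctrl, orange LKB1 KO). The groups occupy opposite corners, and within neither group do the points run in a single direction.

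Of the other factors known to act with PGC-1alpha, none rose past the threshold. Of 18 measured coactivators and partners, Ppargc1a rose, Ppara fell, and 16 did not pass, with a median of -0.05. At an unadjusted p under 0.05 (limma), 2 of the 18 were higher, Ppargc1a among them, and 1 was lower. Ppara, the nuclear receptor that drives fatty acid oxidation genes, read 7.41, 6.90, 6.94 and 6.71 in Ctrl and 5.70, 5.71, 6.15 and 5.43 in LKB1 KO. No LKB1 KO array reached the Ctrl range, and the difference was -1.24 (SE 0.19, adjusted p = 0.00895). Nrf1 stood at 0.016, Esrra at -0.06 and Gabpa at -0.34 (SE 0.17), with 0 of these past the threshold. In the list of mitochondrial genome maintenance and transcription, 0 of 14 measured genes passed and 9 had a lower mean, with a median of -0.13 (-0.0074 without LKB1 KO 2). At an unadjusted p under 0.05 (limma), 0 of the 14 were higher and 3 lower. Tfam, which packs and transcribes mitochondrial DNA, stood at 0.18 (SE 0.24).

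Genes that build the complexes without being part of them had medians closer to 0 than the subunits of the same complex. Of 16 measured assembly factors of complex I, 8 had a higher and 8 a lower mean, with a median of -0.013. The medians were 0.0055 for 4 factors of complex II, -0.04 for 6 of complex III, 0.08 for 22 of complex IV (0.022 to 0.12 over the settings tried) and 0.17 for 4 of complex V. None of the genes on these 5 lists passed the threshold (limma; 5 higher and 4 lower at an unadjusted p under 0.05), and no test compared them with the subunits. The lists also differ in level. Median levels were 5.62 (complex III) to 6.97 (complex V) for the assembly factors, against 9.10 for all members and 5.75 for those of complex IV. The part of level in this contrast was not tested. The 6 measured subunits and carriers outside the naming rule or on its edge (Ndufab1, Cyc1, Cycs, Atpif1, Atp5md and Atp5mpl, the last pair also members) all had a higher mean, with a median of 0.32. Cycs, cytochrome c, differed by 0.57 (SE 0.25) with overlapping groups. None of the listed mitochondrially encoded subunits was matched to a named row, so they were not analysed here.

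TCA cycle genes, which supply the chain with NADH and succinate, had a median difference of 0.30 over 13 measured members, 11 of them higher in mean. Fh1 (fumarase) and Mdh2 (mitochondrial malate dehydrogenase), which act after succinate dehydrogenase in the cycle, rose. Fh1 read 9.38, 9.80, 10.18 and 9.92 in Ctrl and 10.82, 10.61, 10.67 and 10.66 in LKB1 KO, a rise of 0.87 (SE 0.17, adjusted p = 0.0263). Mdh2 read 9.88, 10.26, 10.41 and 10.36 against 11.04, 10.80, 11.00 and 10.94, a rise of 0.72 (SE 0.14, adjusted p = 0.0312). Neither gene overlapped between the groups. Both calls ended on leaving out Ctrl 1 or Ctrl 2, or any LKB1 KO array but LKB1 KO 2 (adjusted p up to 0.0857 for Fh1 and 0.0970 for Mdh2). The members Suclg1 (-0.15) and Suclg2 (-0.19) had lower means. Of the import machinery, 17 of 20 genes had a higher mean (median 0.14), as did 57 of 76 mitochondrial ribosomal protein genes (median 0.12), and 0 of either list passed (limma; 5 and 8 higher and 0 and 2 lower at an unadjusted p under 0.05).

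**Figure D5:**
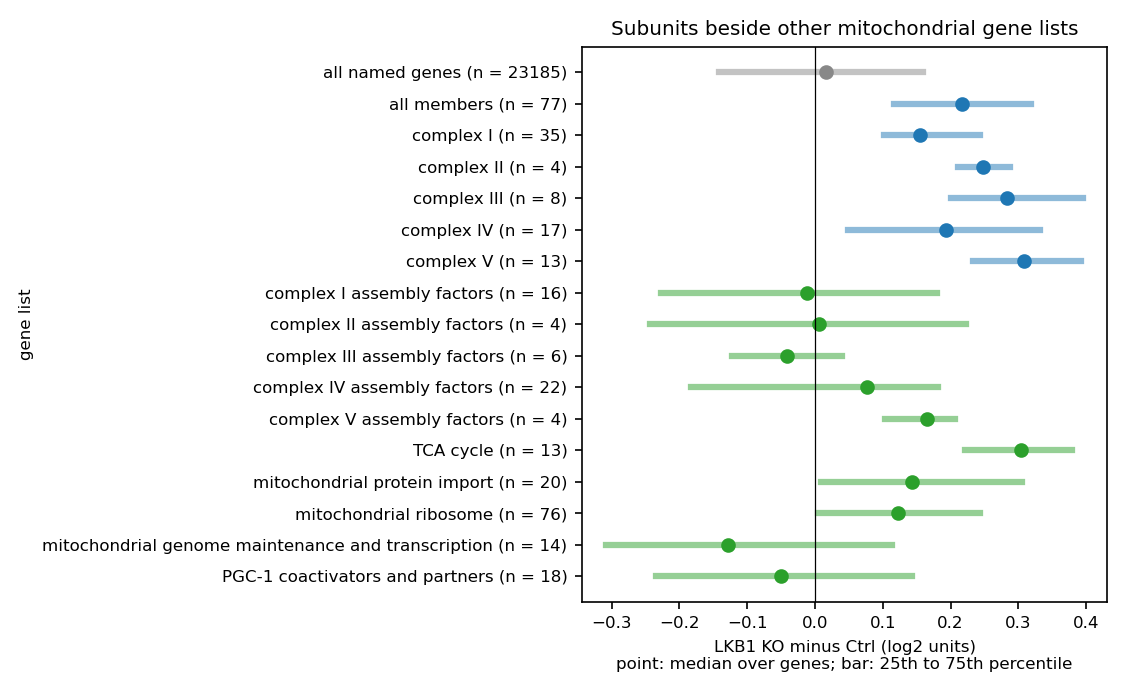
Median difference between LKB1 KO and Ctrl in log2 units (points) and the span from the 25th to the 75th percentile over genes (bars) for all named genes, the subunit genes by complex and the other mitochondrial lists, with the number of measured genes. The 5 complexes and the TCA cycle have medians from 0.15 to 0.31, and the assembly factors of complexes I to III have medians near 0.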

How the data were processed

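For each of 8 arrays the authors deposited log2 expression values, 1 per probe set row. RMA and Partek are named, without versions, per the submitters' processing notes. No source used here names the array design or the genome build, and coordinates are left out. RMA compresses differences between dim probes, and levels of different genes are not directly comparable. The groupings by level and the edge of background used here are therefore only rough. The platform annotation paired 23185 of 25206 rows with a single symbol, 2021 with none and 0 with several. No filter on level was set.

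limma 3.58.1 in R 4.3.3 (lmFit, eBayes) was fitted to all named rows with the group as the only term, and p-values were adjusted by Benjamini-Hochberg over them, with a threshold of 0.05. The fit was tested on simulated data with independent noise for each gene and no outlying array. That test does not cover genes that move together or an array like Ctrl 4. Medians over members carry no p. Background was gauged on 1354 olfactory and vomeronasal receptor genes (median 2.11, 95th percentile 3.73).

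Members, lists and the naming rule were chosen with earlier results of these data known. Named are Stk11, Ppargc1a, the 2 highest and 2 lowest members of each complex (all of complex II), members of the fixed subunit lists, and list genes past the threshold. Other list genes given with values (such as Suclg1, Cat and Slc25a4) were picked after their values were seen. Alternatives were leaving out each array, LKB1 KO 2 with Ctrl 4, quantile normalization, centring, leaving out dim genes, other variance priors, array weights, all rows, a stricter threshold and a replicate block. The planned promoter motif search was not run.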

Additional observations from a re-analysis of the deposited data

Results flagged for a closer look

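Among 142 groups of 4 arrays examined (the named genes, the medians of each complex per array and the marker means), 11 held an array whose gap to its nearest neighbour took up more of the group's range than Dixon's 95% critical value. Chance flags about 1 in 20 groups. In the Ctrl group, Ctrl 4 was high for Cox8b (7.45, against 2.70 to 2.80; gap 0.978 of the range), for Cox7a1 (6.08, against 4.70 to 4.94; 0.830), for the mean of the muscle markers (6.11, against 3.03 to 3.29; 0.914) and for that of the stellate cell and fibroblast markers (6.15, against 5.49 to 5.59; 0.841). It was low for Sdha (9.07, against 9.18 to 9.20; 0.830). Ctrl 1 was low for Uqcrc1 (8.63, against 8.77 to 8.78; 0.899), Cox7b (4.75, against 5.20 to 5.22; 0.946) and Cox7b2 (1.67, against 1.99 to 2.04, all in the range of background; 0.848). Ctrl 2 was high for Ndufs3 (4.96, against 4.57 to 4.62; 0.874) and for Atp5md (9.61, against 9.30 to 9.34; 0.858). In the LKB1 KO group, LKB1 KO 2 was low for Ndufs1 (7.02, against 7.66 to 7.74; 0.896).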

How the results depend on the processing

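With 1 array left out, 0 to 2 members were called higher, with 42 to 144 of all named genes higher and 164 to 382 lower. The members called were Uqcr10 without Ctrl 3, and Cox7a1 and Ndufa12 without Ctrl 4. Members called higher numbered 1 without both LKB1 KO 2 and Ctrl 4, 4 with quantile normalization, 2 without the dimmest genes, 7 with a trended and robust prior and 2 with array weights, against 0 in the fit as described. No member was called lower in any setting tried. Over all named genes, quantile normalization gave 198 higher and 340 lower (36.8% of calls higher, against 24.7% in the fit as described), array weights 254 higher, no moderation 13 higher and 84 lower, and an adjusted p under 0.01 left 24 higher and 115 lower. The median of all members stayed between 0.18 and 0.27 and the number with a higher mean between 67 and 71 over the settings tried, while the median of all genes stayed within -0.020 and 0.021. Single arrays left out gave medians of 0.11 to 0.21 for complex I, 0.17 to 0.30 for IV, and positive values for II, III and V. Ppargc1a kept its value of 1.34 but not its call without moderation of variances (adjusted p = 0.0588), as did Ppara (0.0908) and G6pc (0.0976).

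Directions turned for 11 of the 77 members in at least 1 setting: the 5 below, and Ndufa2, Ndufa7, Ndufa13, Ndufb3, Ndufb11 and Cox7a2l, whose differences over all arrays were at most 0.15. With 1 array left out, Cox8b ranged from -1.54 to 0.048 (positive without Ctrl 4), Atp5j from -0.018 (without LKB1 KO 3) to 0.080, Atp5c1 from -0.080 (without LKB1 KO 4) to 0.22, Cox4i2 from -0.10 (without LKB1 KO 3) to 0.16, also negative without Ctrl 1 (-0.097), and Cox7b from -0.026 (without LKB1 KO 2) to 0.30. Cox8b was at 0.060 without both LKB1 KO 2 and Ctrl 4, and Atp5j at -0.0017 with centred arrays. The titles share replicate numbers and do not say whether these pair the samples. Same-numbered arrays deviated with correlations of -0.036, -0.11, 0.18 and -0.022, and so few values cannot settle the question. With the replicate block 186 genes were lower, 0 members were called, the median of members was 0.22, and Fh1 (adjusted p = 0.0740) and Mdh2 (0.0873) were not called. Both also lost their calls with centred arrays (0.0511 and 0.0708) and without moderation (0.126 and 0.103). The causes were not tested. Of 684 counts on the gene lists, 41 moved by over 1.5 times, each between counts of 0 and 2. Precision is limited by how many arrays there are.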

Other observations

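Among genes outside the chain that are known to respond to PGC-1alpha in liver, 11 were measured and 1 rose. This was G6pc, glucose-6-phosphatase, at 8.71, 8.51, 9.13 and 8.61 in Ctrl and 10.15, 9.82, 9.85 and 9.49 in LKB1 KO (1.09, SE 0.18, limma adjusted p = 0.0125). Pck1, the other key enzyme of gluconeogenesis, stood at -0.023 (SE 0.14) with overlapping groups. The catalase gene Cat stood at -0.62 (SE 0.17), with separate arrays, and the fatty acid oxidation genes Cpt1a and Acadm at 0.12 and 0.05. The median of the list was 0.12, and without Ctrl 4 limma called 2 of its genes higher and 1 lower. Without both LKB1 KO 2 and Ctrl 4 the adjusted p of G6pc was 0.0520. In the uncoupling and thermogenesis list 0 of 8 measured genes passed (limma; 2 higher and 1 lower at an unadjusted p under 0.05), with a median of -0.07.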
